A study of Mus musculus with 6 samples.

Results

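Fatty acid synthesis turns acetyl-CoA into long-chain fatty acids, and elongases and desaturases then lengthen the chains and add double bonds. The 10 genes described here encode its mouse enzymes: Acly, Acaca, Acacb and Fasn for synthesis, Elovl5 and Elovl6 for elongation, and Scd1, Scd2, Fads1 and Fads2 for desaturation. They were taken by gene symbol from a table of read counts for 55011 genes, and all 10 were present and had enough counts to be tested among 12296 genes.

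As background, citrate that leaves the mitochondrion is split by ATP citrate lyase (Acly) into acetyl-CoA, which acetyl-CoA carboxylase turns into malonyl-CoA and fatty acid synthase (Fasn) joins into palmitate. In fat tissue the products are stored as triacylglycerol, and the stearoyl-CoA desaturases supply the monounsaturated chains that triacylglycerol is rich in. Transcription of these genes is known to respond to the factors SREBP-1c (Srebf1), ChREBP (Mlxipl) and LXRα (Nr1h3), and, in adipocytes, to PPARγ (Pparg) and C/EBPα (Cebpa).

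The libraries are of polyadenylated RNA from cultured mouse stromal cells of visceral fat (eWAT in the design text, a common short form of epididymal white adipose tissue). Stromal cells are the connective-tissue cells of fat and include the precursors of adipocytes. All 6 libraries have the genotype label Il33-EGFP-, and their titles read IL33_neg. Both are read here as cells negative for the green fluorescent reporter of the cytokine gene Il33. The cells of 3 libraries received phosphate-buffered saline (PBS) for 3 days, and those of the other 3 received Irisin/HSP90α at 10 nM for 3 days, called irisin below. Irisin is a hormone cleaved from a muscle membrane protein and HSP90α is a chaperone. The titles name irisin alone, and whether the PBS wells also held HSP90α is not stated in the labels. The labels name neither strain nor age. The labels leave unsaid whether replicates came from different wells, cultures or mice, and the p-values then describe no more than the scatter of these samples, and that scatter may be technical. The question, as the design text puts it in other words, is whether the treated cells leave the path of adipocyte precursors.

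Levels are in CPM, the unit that corrects read counts for library depth and here also for library composition, and are given for replicates 1, 2 and 3 of PBS and then of irisin. The log2 fold change (LFC) sets irisin over PBS and is followed by its standard error. Each adjusted p comes from the quasi-likelihood test of edgeR, with the Benjamini-Hochberg method applied over all 12296 genes. A gene is said to have risen or fallen where its adjusted p is under 0.05. Total counts lay between 5271309 and 6745799 per library. Over all genes, PBS replicate 3 and irisin replicate 1 stood apart from the other 4 libraries on a component holding 24.5% of the variance, while the component that separated the groups held 48.5%.

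With irisin, Scd1, the stearoyl-CoA desaturase of fat and liver, fell 2.68-fold, and none of the other 9 genes passed the test. That is 1 of 10 members lower and 0 higher, beside 7.42% of all genes tested that passed (3.22% lower and 4.2% higher). These are 396 lower and 516 higher genes, against 602 and 422 with scaling by total counts alone. The members' median LFC was -0.13, against -0.01 over all genes tested. Unadjusted p was under 0.05 for 5 members, against 18.2% of all genes. The 3 irisin values lay wholly outside the 3 PBS values for Scd1, Acacb and Fads2, against 23.6% of all genes.

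**Figure D1:**
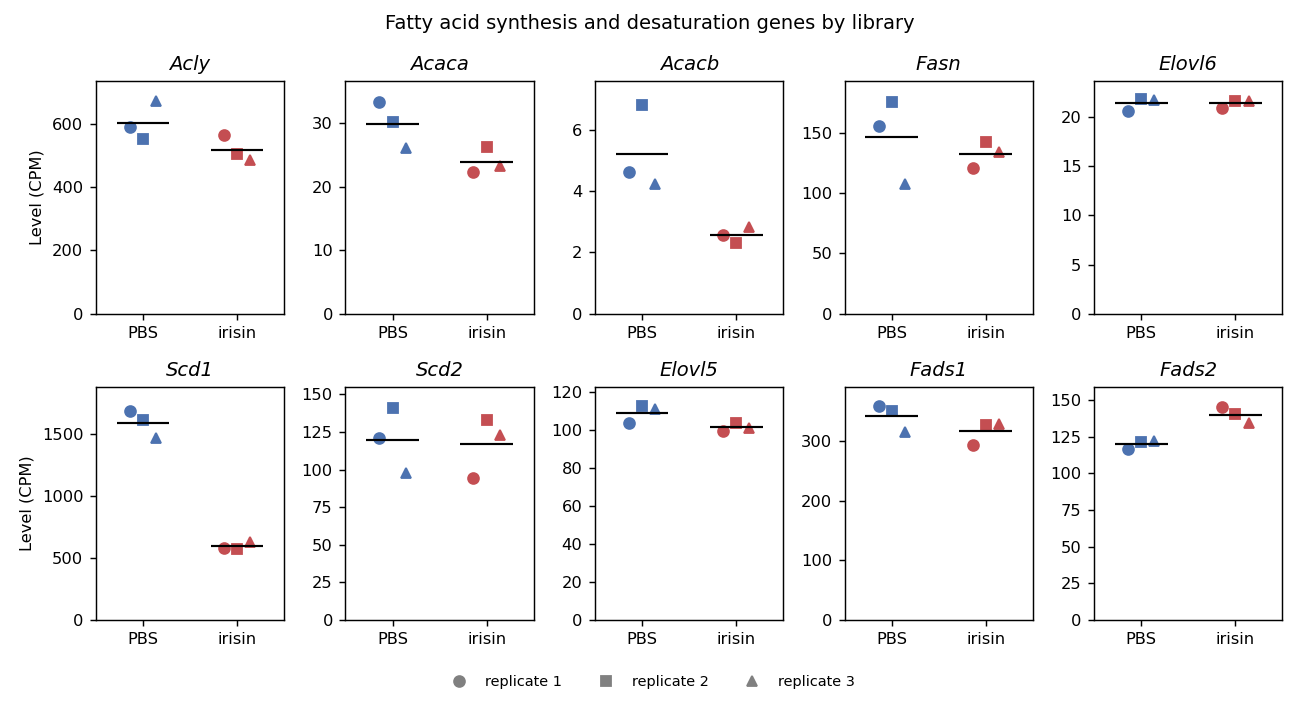
Level of each of the 10 genes (y axis, CPM, starting at 0) in the 3 PBS (blue) and 3 irisin (red) libraries, with the replicate number as the marker shape and the group mean as a line. The Scd1 values fall into separate ranges, 1471 to 1686 CPM with PBS and 574 to 627 CPM with irisin, while the groups overlap for 7 of the other panels.

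Stearoyl-CoA desaturase puts the first double bond into palmitate and stearate. The mouse has several copies of the gene, of which Scd1 is the main form in fat and liver and Scd2 is known from brain and from early development. Both lie on chromosome 19 of GRCm38 and code for protein: Scd1 at chr19:44394455-44407879 on the minus strand and Scd2 at chr19:44293674-44306864 on the plus strand. Their coding sequences (1065 and 1074 bases, GENCODE M21) were identical at 962 of 1065 aligned bases, 90.3%. Scd1 fell and its similar copy Scd2 did not pass, so the stretch where their coding sequences differ most is shown first. It is 120 bases of exon 2 with the 32 differing bases in capitals. It lies at chr19:44406591-44406710 (minus strand) for Scd1 and chr19:44294963-44295082 (plus strand) for Scd2.
Scd1: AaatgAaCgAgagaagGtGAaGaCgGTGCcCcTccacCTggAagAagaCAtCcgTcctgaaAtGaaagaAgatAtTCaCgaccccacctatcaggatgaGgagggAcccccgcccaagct
Scd2: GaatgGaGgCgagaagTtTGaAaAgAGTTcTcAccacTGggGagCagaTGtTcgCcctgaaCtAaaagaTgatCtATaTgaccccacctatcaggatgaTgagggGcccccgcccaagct

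The longest identical run of the coding sequences is 147 bases, across exons 4 and 5 (coding bases 523 to 669 of Scd1 and 532 to 678 of Scd2), and a read that lies wholly inside it cannot be given to either gene. It spans chr19:44400341-44401805 on the minus strand in Scd1 and chr19:44299702-44301245 on the plus strand in Scd2.
Scd1 and Scd2: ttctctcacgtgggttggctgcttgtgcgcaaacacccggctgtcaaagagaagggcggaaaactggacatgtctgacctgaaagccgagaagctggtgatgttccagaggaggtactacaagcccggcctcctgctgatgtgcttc
Over whole transcripts, 8.38% of the 30-base stretches of Scd1 and 7.05% of those of Scd2 also occur in a transcript of another gene. The remaining copies were nearly absent, with 0 to 1 counts per library for Scd3 and 0 to 4 for Scd4. The sources used here do not give how reads that match several genes were counted.

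Scd1 stood at 1686, 1613 and 1471 CPM with PBS and at 579, 574 and 627 CPM with irisin. Every irisin library was below every PBS library, and the lowest PBS value was more than double the highest irisin value. Scd1 fell 2.68-fold, from 1590 ± 109 to 593 ± 29.1 CPM (SD, n = 3 each), with an LFC of -1.42 ± 0.09, a 95% interval from -1.61 to -1.23 and an adjusted p of 3.52e-07. It ranked 29 by p among the 12296 genes, and 1.28% of them passed and were at least 2-fold lower. Behind these values stood 7989 to 11616 counts in the PBS libraries and 2970 to 3988 in the irisin ones. In every alternative analysis, 16 in all, Scd1 was lower, with an LFC between -1.50 and -1.38 and an adjusted p of at most 3.51e-05.

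Scd2 stood at 121, 141 and 97.4 CPM with PBS and at 94.1, 133 and 123 CPM with irisin. The groups overlapped, with the lowest value of PBS in replicate 3 and that of irisin in replicate 1. The means were 120 ± 21.8 and 117 ± 20.2 CPM (LFC -0.04 ± 0.15, adjusted p = 0.940), and the 95% interval of the LFC ran from -0.38 to 0.30. Its sign turned to an LFC of 0.09 without PBS replicate 2 or without irisin replicate 1.

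The ratio of the pair, taken within each library, does not depend on how libraries were scaled. Scd1 had 13.9, 11.4 and 15.1 counts for each count of Scd2 in the PBS libraries and 6.15, 4.32 and 5.09 in the irisin libraries. The log2 ratio of Scd2 to Scd1 was 1.38 higher with irisin and the groups did not overlap. How often the ratios of other gene pairs separate in this way was not computed, here or for the ratios below. Scd1, Acacb and Fads2 were without overlap as single genes, so the ratios that hold them are not separate evidence. The exact two-sided permutation test over libraries gave p = 0.1, the smallest that 3 against 3 allows, and 0.1 after adjustment over the 4 ratios computed.

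Acetyl-CoA carboxylase, which makes the malonyl-CoA that feeds synthesis, also has separate genes. Acaca (chr11:84129672-84401651, plus strand) encodes the cytosolic form used in lipogenesis. Acacb (chr5:114146535-114250761, plus strand) encodes the form at the mitochondrial surface, whose malonyl-CoA is known to restrain the import of fatty acids for oxidation. Acacb was the member with the next largest fitted difference after Scd1, and it did not pass the test.

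Acacb stood at 4.64, 6.81 and 4.23 CPM with PBS and at 2.56, 2.32 and 2.83 CPM with irisin. The groups did not overlap, but the counts were few, 23 to 43 with PBS and 12 to 18 with irisin. The means were 5.23 ± 1.39 and 2.57 ± 0.255 CPM (LFC -1.02 ± 0.30, 95% interval -1.67 to -0.36, adjusted p = 0.0635). It passed at adjusted p = 0.0361 without PBS replicate 3, at 0.0410 with scaling by total counts alone and at 0.0392 in limma-voom. It also passed without both PBS replicate 3 and irisin replicate 1 (0.0405), and its adjusted p was above 0.05, up to 0.269, in the other alternatives that tested it.

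Acaca stood at 33.4, 30.3 and 26.1 CPM with PBS and at 22.2, 26.3 and 23.3 CPM with irisin. The groups touched, since irisin replicate 2 was just above PBS replicate 3. The means were 29.9 ± 3.63 and 23.9 ± 2.10 CPM (LFC -0.33 ± 0.14, 95% interval -0.63 to -0.03, adjusted p = 0.226). Of the 30-base stretches of Acaca, 33.5% also occur elsewhere, mainly in the processed pseudogene Gm5182, which had 4 to 9 counts per library. Acaca had 7.19, 4.44 and 6.17 counts for each count of Acacb with PBS and 8.69, 11.3 and 8.22 with irisin. The log2 ratio of Acacb to Acaca was lower by 0.68 with irisin in the mean, with no overlap of the groups (exact permutation p = 0.1, the smallest possible, two-sided).

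**Figure D2:**
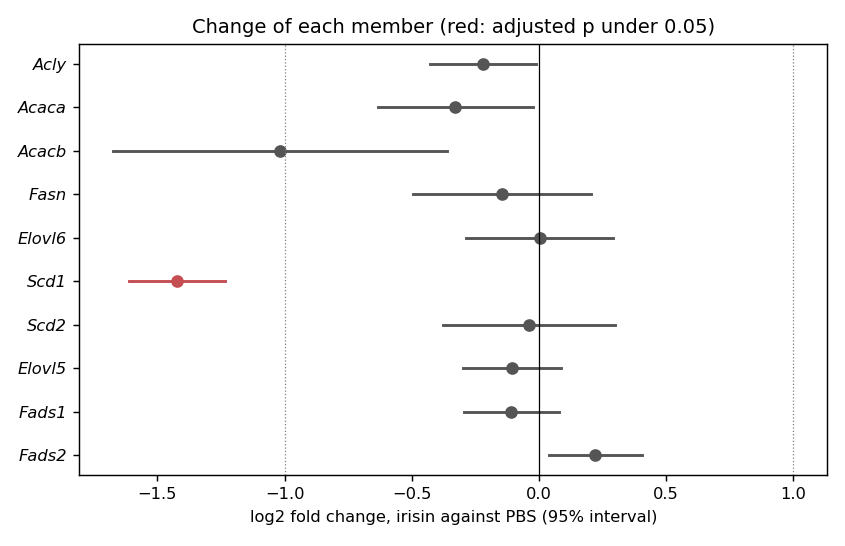
Log2 fold change of each gene, irisin against PBS (x axis), as a point with its 95% interval, red where the adjusted p was under 0.05. Scd1 at -1.42 is the red point, the interval of Acacb is the widest (-1.67 to -0.36), and Elovl6 lies at 0.00.

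Acly, at chr11:100476353-100528000 on the minus strand, supplies the acetyl-CoA. Its levels were 590, 552 and 673 CPM with PBS and 566, 507 and 485 CPM with irisin. The groups overlapped, with irisin replicate 1 above PBS replicate 2. The means were 605 ± 61.4 and 519 ± 41.7 CPM (LFC -0.22 ± 0.10, 95% interval -0.43 to -0.01, adjusted p = 0.237).

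Fasn, at chr11:120805846-120824547 on the minus strand, encodes the multi-step enzyme that builds palmitate. Its levels were 156, 175 and 108 CPM with PBS and 121, 142 and 134 CPM with irisin. All 3 irisin values lay inside the PBS range. The means were 146 ± 34.8 and 132 ± 10.7 CPM (LFC -0.14 ± 0.16, 95% interval -0.49 to 0.20, adjusted p = 0.730). Fasn did not pass, and its result depended on single libraries. Without PBS replicate 3 the LFC was -0.32 with an adjusted p of 0.0304, and without PBS replicate 2 it was 0.01.

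Elongation adds a pair of carbons at a time. Elovl6 (chr3:129532355-129638495, plus strand) acts on palmitate, the product of Fasn, and Elovl5 (chr9:77917364-77984519, plus strand) acts mainly on polyunsaturated chains. Elovl6 had the LFC nearest to 0 of the 10 genes, at 20.6, 21.9 and 21.7 CPM with PBS and 21.0, 21.6 and 21.7 CPM with irisin. The mean was 21.4 CPM in both groups (SD 0.689 and 0.405), the LFC was 0.00 ± 0.13 with a 95% interval from -0.29 to 0.29, and the adjusted p was 0.997. With scaling by total counts alone its LFC was -0.08.

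Elovl5 stood at 103, 113 and 111 CPM with PBS and at 99.2, 104 and 101 CPM with irisin. The groups overlapped at PBS replicate 1. The means were 109 ± 4.98 and 101 ± 2.33 CPM (LFC -0.11 ± 0.09, 95% interval -0.30 to 0.08, adjusted p = 0.618). The Elovl5 to Elovl6 count ratio was 5.01, 5.15 and 5.11 with PBS and 4.73, 4.79 and 4.64 with irisin. The groups did not overlap, but the log2 ratio of Elovl6 to Elovl5 differed by only 0.11 (exact permutation p = 0.1, the smallest possible, two-sided).

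Fads1 and Fads2 encode the desaturases that make long polyunsaturated fatty acids from dietary precursors, Fads2 the earlier step and Fads1 the later one. They are neighbours on chromosome 19, Fads1 at chr19:10182888-10196877 on the plus strand and Fads2 at chr19:10062765-10101746 on the minus strand. Fads2 had the highest fitted LFC of the 10 members. Its levels were 117, 122 and 122 CPM with PBS and 145, 140 and 134 CPM with irisin. Every irisin library was above every PBS library, and the gap was small. The means were 120 ± 3.11 and 140 ± 5.48 CPM (LFC 0.22 ± 0.08, 95% interval 0.04 to 0.40), and the adjusted p was 0.165.

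Fads1 stood at 359, 351 and 316 CPM with PBS and at 294, 328 and 330 CPM with irisin. The groups overlapped, with PBS replicate 3 below irisin replicates 2 and 3. The means were 342 ± 23.1 and 317 ± 19.9 CPM (LFC -0.11 ± 0.09, 95% interval -0.30 to 0.08, adjusted p = 0.6). Fads1 had 3.08, 2.89 and 2.58 counts for each count of Fads2 with PBS and 2.02, 2.34 and 2.45 with irisin. The log2 ratio of Fads2 to Fads1 was 0.33 higher with irisin, with no overlap (exact permutation p = 0.1, the smallest possible, two-sided).

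**Figure D3:**
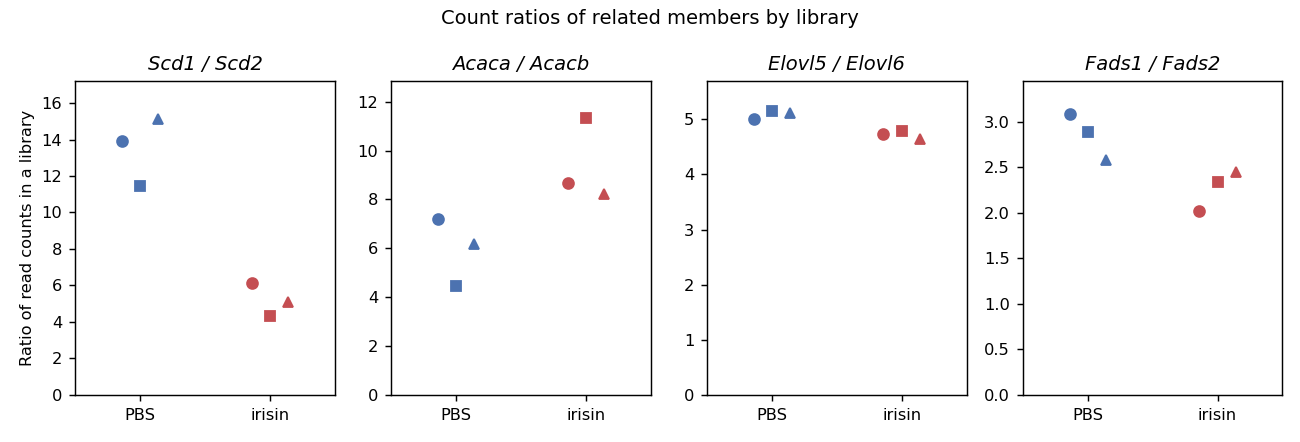
Ratio of read counts (y axis, starting at 0) of related genes within each PBS (blue) and irisin (red) library, marker shapes giving replicates 1 (circle), 2 (square) and 3 (triangle). Scd1 to Scd2 ran from 11.4 to 15.1 with PBS and from 4.32 to 6.15 with irisin, and in no panel did the groups overlap. The share of all gene pairs without overlap was not computed. For single genes, which are an unlike measure, it was 23.6%. Scd1, Acacb and Fads2 were already without overlap as single genes, so the panels that hold them are not separate evidence.

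For 8 of the 9 members that did not pass, the 95% interval of the fold change stayed above 0.6 of the PBS level, the exception being Acacb, whose interval reached down to 0.314. For all 9 it stayed below 1.4 times the PBS level. Smaller changes within those limits are not shown to be absent.

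Summed over the 10 genes, the level was 3190, 3126 and 2949 CPM with PBS and 1944, 1977 and 1982 CPM with irisin. Most of that gap was Scd1, which made up 52.8%, 51.6% and 49.9% of the sum in the PBS libraries and 29.8%, 29.0% and 31.6% in the irisin libraries. Without Scd1 the sums were 1499 ± 18.0 and 1375 ± 25.4 CPM.

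Set per kilobase of exon, so that genes can be compared, the 10 levels spanned a wide range in the same order in both groups. Scd1 was highest, at 325 ± 22.4 CPM per kilobase with PBS and 121 ± 5.94 with irisin. Acly followed at 115 ± 11.6 and 98.3 ± 7.89, then Fads1 at 71.1 ± 4.8 and 66.0 ± 4.14, Fads2 at 36.5 ± 0.944 and 42.5 ± 1.66, and Elovl5 at 30.9 ± 1.41 and 28.7 ± 0.661. Scd1 was thus the highest of the 10 in both groups, well above Acly with PBS and nearer to it with irisin. Scd2 came next at 21.9 ± 4.0 and 21.4 ± 3.70, then Fasn at 13.3 ± 3.18 and 12.1 ± 0.982, and Elovl6 at 3.33 ± 0.107 and 3.33 ± 0.0630. The carboxylases were lowest, Acaca at 1.75 ± 0.213 and 1.4 ± 0.123 and Acacb at 0.543 ± 0.144 and 0.267 ± 0.0264. Within either group, no neighbours in this order had ranges that overlapped. Lengths are the union of annotated exons, and the sources used here do not give how evenly reads covered the transcripts, so a long gene such as Acaca, with 17074 exon bases, may be understated.

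**Figure D4:**
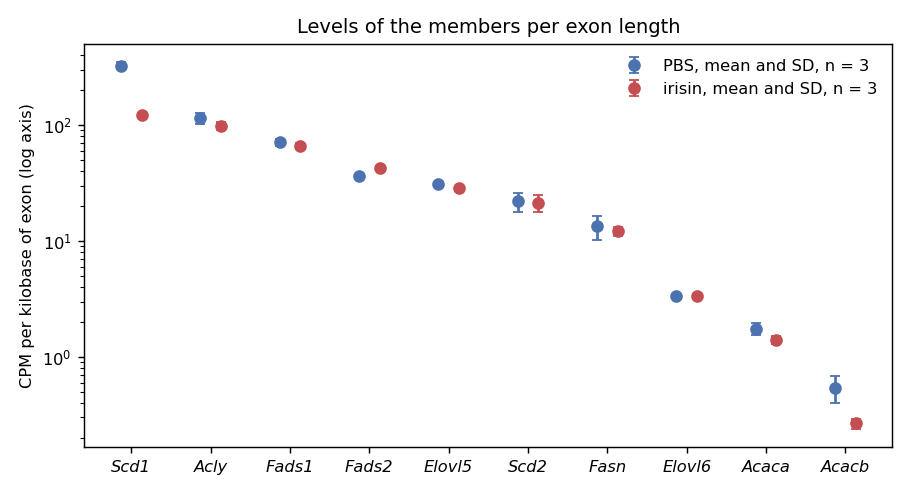
Level per kilobase of annotated exon (y axis, CPM per kilobase, log axis) for the 10 genes in falling order, as mean and SD over 3 PBS (blue) and 3 irisin (red) libraries. The order is the same in both groups, from Scd1 (325 and 121) down to Acacb (0.543 and 0.267).

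Among the members, PBS replicate 3 held the lowest value of its group for 6 genes and irisin replicate 1 for 6, and both did so for 4, Acaca, Fasn, Scd2 and Fads1. Over all genes tested, both were lowest for 22.7%. With both libraries left out, 4 members passed as lower rather than 1: Scd1 (LFC -1.45), Acacb (-1.13, adjusted p = 0.0405), Fasn (-0.26, adjusted p = 0.0152) and Acly (-0.20, adjusted p = 0.00683). The remaining libraries are the closest pair of each group, and over all genes this choice raised the calls to 892 higher and 788 lower from 516 and 396.

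The genes whose profile over the 6 libraries was most like that of Scd1, by root mean square difference of centred log2 CPM among 8609 genes averaging 10 CPM or more, were Aldh1a3 (0.0693), Fgl2 (0.0718), Foxs1 (0.0933), Slc5a3 (0.107) and Ptgs2 (0.116). They encode a retinaldehyde dehydrogenase, a fibrinogen-like protein, a forkhead factor, a sodium/myo-inositol cotransporter and cyclooxygenase 2. For Fasn they were Ptgis (0.0102), which encodes prostacyclin synthase, Stk40 (0.0397), Marf1 (0.0533), Cdk8 (0.0542) and Snhg4 (0.0545). Predicted genes and pseudogenes were left out, as was Acacb, which averaged under 10 CPM. None of the other members was among the 5 nearest to either gene.

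Of 20 regulators of these genes listed, 18 were tested, 3 fell, 1 rose and 14 did not pass, with a median LFC of -0.25. The share that passed was above the 7.42% of all genes, and the groups did not overlap for 7 of the 18, against 23.6% of all genes. Srebf1, the sterol-regulated factor for lipogenesis, stood at 181, 179 and 127 CPM with PBS and at 147, 145 and 162 CPM with irisin. The groups overlapped (LFC -0.10 ± 0.13, adjusted p = 0.763), again with PBS replicate 3 the lowest. Nr1h3 (LFC -0.30 ± 0.12, adjusted p = 0.186) and Insig1 (LFC -0.25 ± 0.12, adjusted p = 0.309), which holds SREBP in the endoplasmic reticulum, did not pass. Mlxipl, which encodes ChREBP, was too low to test, with 14, 10 and 0 counts with PBS and 3, 4 and 7 with irisin.

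Among the regulators that fell were Pparg and Cebpa, the factors of adipocyte differentiation. Pparg went from 153 ± 16.0 to 84.5 ± 7.50 CPM (LFC -0.86 ± 0.11, adjusted p = 0.000156) and Cebpa from 38.3 ± 1.19 to 23.4 ± 1.93 CPM (LFC -0.70 ± 0.12, adjusted p = 0.00261). The groups did not overlap for either gene. Rxra, the partner of PPARγ and LXR, fell with an LFC of -0.38 and an adjusted p of 0.0486, and Trib3, a pseudokinase of the stress response, rose with an LFC of 0.44 and an adjusted p of 0.0470. These last calls stood at the threshold: Trib3 lost its call when any one library was left out (adjusted p 0.0671 to 0.151), and Rxra when any one except PBS replicate 3 was left out (up to 0.188).

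In the genes that supply acetyl-CoA and NADPH, 2 of 15 fell, beside 3.22% of all genes, none rose and the median LFC was -0.08. Idh1, the cytosolic NADP-linked isocitrate dehydrogenase, went from 671 ± 83.1 to 453 ± 35.3 CPM (LFC -0.57 ± 0.10, adjusted p = 0.00313). Pyruvate carboxylase, listed as Pcx, went from 129 ± 23.5 to 73.9 ± 4.74 CPM (LFC -0.81 ± 0.13, adjusted p = 0.00122). Of 20 other elongation and desaturation genes 15 were tested and none passed (median LFC -0.09, 2 with unadjusted p under 0.05). Of 10 genes of mitochondrial fatty acid synthesis 9 were tested and none passed in edgeR (median LFC -0.23, 2 with unadjusted p under 0.05), while limma-voom called 1 gene lower in each of these 2 lists.

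Triacylglycerol assembly is the use to which adipocytes put the fatty acids. Of 15 listed genes 13 were tested, 5 fell and none rose, with a median LFC of -0.04. Over all genes tested, 3.22% were lower. Gpat3, an acyltransferase of the first step, fell 6.15-fold from 17.1 ± 1.01 to 2.76 ± 1.69 CPM (LFC -2.62 ± 0.32, adjusted p = 0.000168). Its counts with irisin were few, 28, 14 and 7, and its LFC ran from -3.20 to -2.22 over the alternatives. Agpat2, the acyltransferase of the next step, fell 2.44-fold from 79.5 ± 5.26 to 32.5 ± 6.24 CPM (LFC -1.29 ± 0.14, adjusted p = 3.78e-05). Gpd1, which makes glycerol 3-phosphate, had an LFC of -2.04 ± 0.36 (adjusted p = 0.00557), and Lpin1, a phosphatidate phosphatase, one of -0.73 ± 0.14 (adjusted p = 0.00423). The counts of Gpd1 with irisin were also few, 12, 26 and 36. Dgat1, which adds the last acyl chain, had an LFC of -0.56 ± 0.12 (adjusted p = 0.00984), lost without PBS replicate 1 (0.0580) or irisin replicate 2 (0.0509). The corresponding paralogs Gpam (LFC -0.07), Gpat4 (-0.04), Agpat1 (0.09), Agpat3 (-0.00), Agpat5 (0.03) and Dgat2 (0.16) did not pass. Neither did the paralogs of Lpin1, Lpin2 (0.44, adjusted p = 0.230) and Lpin3 (0.29), whose fitted LFC was positive.

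Fatty acid oxidation breaks the chains down again, and cholesterol synthesis shares the acetyl-CoA supply. Of 22 oxidation genes tested, 1 fell and none rose, with a median LFC of -0.06. That gene was Etfb, an electron carrier subunit (LFC -0.46, adjusted p = 0.0156), which lost its call without PBS replicate 1 (0.0594), irisin replicate 2 (0.0817) or irisin replicate 3 (0.0806). Of the 21 cholesterol genes described here, 1 fell and none rose, with a median LFC of -0.072. Neither count is far from the 3.22% of all genes that were lower. The cholesterol gene was Hsd17b7, a sterol reductase, which had an LFC of -0.56 (adjusted p = 0.00738, but 0.0594 without irisin replicate 2 and 0.0564 without irisin replicate 3).

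**Figure D5:**
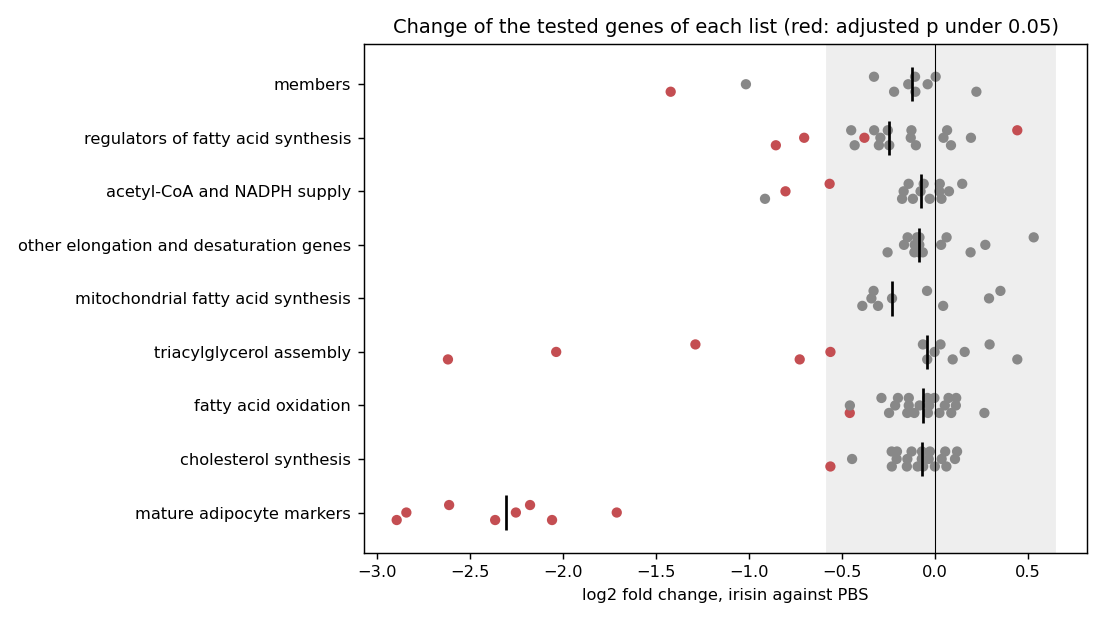
Log2 fold change, irisin against PBS (x axis), of each tested gene in 9 gene lists (rows), red where the adjusted p was under 0.05, with the list's median as a black bar and the 5th to 95th percentile of all genes tested (-0.58 to 0.64) shaded. The triacylglycerol list has 5 red points on the left beside a median of -0.04, and the 8 adipocyte markers tested are all red and on the left.

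Markers of mature adipocytes were lower with irisin, as Scd1 was. Of 10 listed, 8 were tested and all 8 fell, beside 3.22% of all genes, with a median LFC of -2.31. Those with the lowest p were Aqp7, Plin1, Adipoq and Adrb3, with LFC of -2.90, -1.71, -2.06 and -2.61. The list's summed level was 1139, 681 and 731 CPM with PBS and 151, 207 and 186 CPM with irisin, while Lep was at 0 in all 6 libraries. In such bulk samples, fewer cells of a type and less RNA per cell cannot be told apart, and the part of these markers in the result for Scd1 was not tested.

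The cells carried the stromal label's markers: all 11 listed were tested, and their sum was 37864 to 45411 CPM with PBS and 51467 to 56300 CPM with irisin. Of these, Pdgfra (LFC 0.60) and Col1a1 (0.49) rose and Thy1 (-1.30) and Lum (-0.76) fell, Col1a1 at adjusted p = 0.0155 but at 0.0985 without irisin replicate 2 and 0.0725 without irisin replicate 3. Macrophage and leukocyte markers (4 of 11 tested, none passed) summed to 70.8 to 88.7 CPM with PBS and 71.7 to 93.3 with irisin, with C1qa at 0 throughout, and mesothelial markers (2 of 9 tested, none passed) to 37.6 to 43.7 and 44.3 to 54.4, with Upk1b at 0. Endothelial markers (2 of 8 tested, Tek lower with an LFC of -0.59) summed to 35.7 to 42.9 and 22.2 to 29.8 CPM. Mural markers (5 of 7 tested) summed to 136 to 182 and 90.4 to 135 CPM, with Des (LFC -1.13), Cspg4 (-1.63) and Abcc9 (-0.98) lower. Markers of dividing cells (10 tested, Mcm2 and Mcm5 lower with LFC of -0.40 and -0.33) summed to 1014 to 1305 and 993 to 1078 CPM. The calls of Tek, Abcc9, Mcm2 and Mcm5 were each lost on leaving out any of several single libraries, with adjusted p of up to 0.143, 0.152, 0.201 and 0.223. Beside these counts, 3.22% of all genes tested were lower and 4.2% higher. The part of these cell types in the members' values was not tested.

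The promoter windows give the sequence around the start sites of 7 of the 10 members, in RefSeq on GRCm38.p6, from 250 bases before to 50 after the start. No window was available for Scd1, Scd2 or Fads1, so their promoters were not searched. For Acaca (chr11:84195188-84195487) and Acacb (chr5:114165268-114165567) the window lies at an internal start, downstream of the gene start given above, so it does not describe that first start. The other 5 windows contain the gene start. Both strands were searched for 5 motifs: TCACNCCAC (a sterol regulatory element), CACGTG (the E-box of USF and ChREBP-MLX), CCAAT (NF-Y), GGGCGG (Sp1) and the direct repeat bound by PPARG-RXR. Neither TCACNCCAC nor that repeat was in any of the 7 windows, and they occur in 1.24% and 0.0396% of all 32851 windows. CACGTG was in Elovl5 only (7.15% of all windows), at -161. CCAAT was in Fasn (3 matches), Elovl5 (2), Acly and Acacb (1 each), beside 37.4% of all windows, and GGGCGG in Acly (4) and Fads2 (1), beside 35.7%. The Fasn window is shown because it held the most CCAAT boxes of the 7, in a gene for which no change was called: chr11:120824498-120824797 on the minus strand, written 5′ to 3′ along the gene, with CCAAT or its reverse complement in capitals. The matches start at -90, -62 and -59, and the last 2 overlap on opposite strands.
Fasn: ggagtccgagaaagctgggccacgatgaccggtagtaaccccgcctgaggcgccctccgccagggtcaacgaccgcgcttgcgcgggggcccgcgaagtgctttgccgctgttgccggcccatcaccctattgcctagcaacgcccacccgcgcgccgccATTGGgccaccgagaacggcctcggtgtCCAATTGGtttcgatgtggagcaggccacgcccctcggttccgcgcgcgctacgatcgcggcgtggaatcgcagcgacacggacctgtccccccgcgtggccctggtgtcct
A match describes the letters of the window and was not tested for binding. Only the letters given were searched, so a window without a match may still hold a variant of the site.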

How the data were processed

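Polyadenylated RNA was measured in 6 libraries. Lysis took place in the wells of a culture plate and libraries followed the ultra-low-input protocol of the Immunological Genome Project, per the labels' protocols. The authors deposited raw read counts per gene symbol. They used STAR 2.7.3a, featureCounts and the mm10 build, per the submitters' processing notes. Annotation, strand and the treatment of multi-mapping reads: not given in the sources used here.

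Genes with enough counts (filterByExpr, minimum 10) were kept, 12296 of the 31436 with any count. Libraries were scaled by TMM, and irisin was compared with PBS by edgeR's robust quasi-likelihood test (edgeR 4.0.16 in R 4.3.3), with Benjamini-Hochberg adjustment and a threshold of 0.05. The script was tested on simulated data with the same dispersion for every gene. It recovered 52% of 1.5-fold, 88% of 2-fold, 100% of 4-fold and 94% of 8-fold changes. Of its 178 calls there, 11 were false. CPM use the TMM-scaled totals of the tested genes. Alternatives were other scalings, DESeq2 1.42.0, limma-voom (limma 3.58.1), other filters, a replicate block and libraries left out. No library repeated another (chi-square per degree of freedom within groups 2.75 to 14.9). GENCODE M21 gave positions, matched by symbol (53009 of 55011, 96.4%).

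Named genes are the 10 members, each list's passing genes (at most 5 a direction, otherwise the 4 of lowest p), Srebf1, Mlxipl, Nr1h3, Pparg and Insig1, and the 5 nearest profiles of Scd1 and Fasn. The triacylglycerol paralogs that did not pass were named after their values were seen. The members and lists were chosen with earlier results of these data known. A gene first placed in the cholesterol list is not reported here and was left out of that list, though not of the fit over all genes.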

Additional observations from a re-analysis of the deposited data

How the results depend on the processing

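Scd1 was the one member called lower in all 16 alternatives. The count of members called lower was 2 with scaling by total counts alone and 2 in limma-voom (Acacb being the other), 1 to 3 with single libraries left out (3 without PBS replicate 3), and 4 without both PBS replicate 3 and irisin replicate 1. No alternative called a member higher. Acacb had an LFC of -1.09 with total counts, -1.04 in limma-voom, -1.14 to -0.78 with single libraries left out and -1.13 without both libraries. Fasn ran from -0.32 to 0.0062 with single libraries left out and was -0.26 without both. Acly ran from -0.29 to -0.14 with single libraries left out and was -0.20 without both, where Srebf1 was -0.22 (adjusted p = 0.0272). Scd2 ran from -0.16 to 0.094 and Elovl6 from -0.023 to 0.019 with single libraries left out, and Elovl6 was -0.075 with total counts, -0.0083 with no low-count filter and 0.032 without both libraries. Of the nearest profiles to Fasn, Ptgis (-0.32 to 0.016 with single libraries left out), Stk40 (-0.29 to 0.0067) and Marf1 (-0.31 to 0.057) turned positive without PBS replicate 2, and Snhg4 (-0.23 to 0.069) without PBS replicate 1 or 2. Of the members' 159 alternative values, 144 kept direction and side of the threshold, 7 passed it and 8 turned sign; the cause was not tested.

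Over all genes, calls numbered 336 to 705 higher and 238 to 585 lower with single libraries left out, 892 and 788 without both libraries, and 602 lower with total counts, which moved the median LFC of all genes from -0.01 to -0.09 and the share of higher calls from 56.6% to 41.2%. The members' summed irisin level was 1915 CPM with total counts. Deviations of same-numbered libraries from their group mean correlated at -0.26, 0.20 and -0.20 for numbers 1, 2 and 3. The highest correlation of a PBS with an irisin library, 0.40, was that of PBS replicate 3 with irisin replicate 1. With 3 libraries a group, these values cannot decide whether the numbers pair the samples. With the replicate block, Scd1 had an LFC of -1.42 (adjusted p = 3.51e-05), no other member passed, and calls numbered 422 higher and 269 lower. The block ended the calls of Gpd1 (LFC -2.02, adjusted p = 0.0510), Etfb, Rxra, Trib3, Tek, Abcc9, Mcm2 and Mcm5 (adjusted p 0.0518 to 0.137). Depth limits Acacb, at 12 to 43 counts per library, and left Mlxipl untested.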
